A study of Mus musculus with 7 samples.

Results

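The genes described here are 34 that work in glycolysis or rise when cells lack oxygen, and they were chosen by symbol from the 32285 gene identifiers of the count matrices. They comprise 2 glucose transporter genes, 19 genes for glycolytic and closely linked enzymes, and 13 further genes of the hypoxia response. All 34 symbols were present. The list was drawn up with earlier results of these libraries known, so its counts are descriptions. Aldoa is carried by a pair of identifiers, of which the one with 32 unique molecular identifiers (UMIs) in all kept cells was left out. Glycolysis splits glucose to pyruvate in the cytosol, and lactate dehydrogenase turns pyruvate into lactate where it is not burned in mitochondria. Many genes of the pathway are targets of the hypoxia-inducible factors (HIF), transcription factors that prolyl hydroxylases mark for destruction when oxygen is present. Several steps have alternative isozymes, encoded by separate genes, that differ in kinetics and in the tissues that use them. Early embryos rely heavily on glycolysis, and neural crest cells (NCCs) are a migrating population of the embryo.

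The libraries are 10x Genomics single-cell RNA sequencing of EGFP-positive cells sorted from mouse embryos of a mixed Swiss-Webster background that carried Wnt1-Cre, which is active in NCCs and the dorsal neural tube, and a ROSA-EGFP reporter. All 7 libraries share Wnt1-Cre/+ and ROSA-EGFPf/+. The controls are 1 library of the anterior portion of the embryo at E8.5, 1 of the pharyngeal apparatus with heart at E9.5, and 2 at E10.5 of arches 2 to 6 with heart. The Tbx1 null samples are 1 library at E9.5 and 2 at E10.5, the latter from the pharyngeal apparatus below arch 1 with heart. Embryos were pooled before sorting, so each library is 1 pool. The null libraries are called null in their titles, whereas their genotype field reads Wnt1-Cre/+;Tbx1+/-;ROSA-EGFPf/+. The study itself lists them as Tbx1-/- and describes the embryos as null. Tbx1, which acts in tissue next to NCCs, checked nothing here. It stood at 0.545 to 5.14 CPM in the controls and 0.610 to 2.97 CPM in the null libraries, over all kept cells. First-arch tissue entered the E9.5 pools and not those of E10.5, the E8.5 library was made with an earlier kit version, and the study lists the embryos of null E10.5 replicate 1 at an earlier somite range than the others of that stage. Null E10.5 replicate 1 also differs in kit version from the controls of that stage. The part of none of these in the results was tested, except where a value below bears on it.

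Deposited matrices held 140264662 to 234844769 UMIs a library, and 5587 to 9557 cells a library were kept. Mesenchymal cells were those with 2 or more UMIs of Twist1, Prrx1 and Prrx2 together, and there were 2233 to 7081 a library. They were split into Hox 3 mesenchyme (2 or more UMIs of Hoxa3, Hoxb3 and Hoxd3, genes of arch 3 and behind), else Hoxa2 mesenchyme (2 or more of Hoxa2, which arch 1 lacks), else Barx1 mesenchyme, else other mesenchyme. Of the other cells, those with Sox10 (migratory and glial NCCs), Elavl3 and Elavl4 (neurons), or Sox1, Sox2, Sox3 and Pax6 (neural progenitors) formed further classes. Markers that the rules did not use bore the names out in most libraries. The mesenchymal markers Pdgfra, Col3a1 and Snai2 summed to 74.2 to 309 CPM in mesenchymal cells from E9.5 on, against 2.46 to 8.92 CPM in neurons and neural progenitors, but to only 14.4 CPM at E8.5, where 1670 of the mesenchymal cells also met the Sox10 rule. Null E10.5 replicate 2 stood apart. In its mesenchymal cells the neuronal genes Tubb3, Stmn2 and Dcx summed to 694 CPM, against 120.3 CPM in null replicate 1 and 70.0 and 35.4 CPM in the controls. Its summed erythroid markers stood at 9.44 CPM there, against at most 1.18 CPM in any other library. Levels below are UMIs of a gene per 1000000 UMIs (CPM) of a class in a library. The reads come from transcript ends and were not scaled by length, so no level is compared between genes. Isozyme shares below are shares of UMIs, set against each other only across libraries and classes and not read as levels of one gene against another.

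The promoters of the lactate dehydrogenase genes Ldha and Ldhb and the hexokinase genes Hk1 and Hk2 are shown with every window the reference table holds for them, because the members of each pair differed in direction between the stages. The pairs were chosen after their values were seen. Each window holds 250 bases before and 50 after an annotated transcript start (RefSeq, GRCm38.p6), written 5′ to 3′ on the gene's own strand. Capitals mark every ACGTG, a form of the core of the hypoxia response element, and its reverse complement CACGT, overlaps joined. Another form of that core, GCGTG, was neither marked nor counted, and the Ldhb window and the second Ldha window hold it. Both also lie within the E-box CACGTG. The windows are chr7:46845554-46845853 and chr7:46846832-46847131 (plus strand) for Ldha, chr6:142507908-142508207 (minus strand) for Ldhb, chr10:62340372-62340671 and chr10:62379859-62380158 (minus strand) for Hk1 and chr6:82774405-82774704 (minus strand) for Hk2.
Ldha, first window: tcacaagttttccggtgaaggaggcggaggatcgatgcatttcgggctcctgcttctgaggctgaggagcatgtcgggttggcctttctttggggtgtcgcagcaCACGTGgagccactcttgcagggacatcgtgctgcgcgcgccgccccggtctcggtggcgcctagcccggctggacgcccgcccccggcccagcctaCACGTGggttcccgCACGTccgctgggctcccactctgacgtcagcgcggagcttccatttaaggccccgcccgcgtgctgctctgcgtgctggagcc
Ldha, second window: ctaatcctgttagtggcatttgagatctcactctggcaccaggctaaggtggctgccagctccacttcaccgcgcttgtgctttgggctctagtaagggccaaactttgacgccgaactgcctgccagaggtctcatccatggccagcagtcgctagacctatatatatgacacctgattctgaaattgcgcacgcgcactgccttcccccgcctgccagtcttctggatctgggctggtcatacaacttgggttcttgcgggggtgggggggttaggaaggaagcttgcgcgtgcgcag
Ldhb: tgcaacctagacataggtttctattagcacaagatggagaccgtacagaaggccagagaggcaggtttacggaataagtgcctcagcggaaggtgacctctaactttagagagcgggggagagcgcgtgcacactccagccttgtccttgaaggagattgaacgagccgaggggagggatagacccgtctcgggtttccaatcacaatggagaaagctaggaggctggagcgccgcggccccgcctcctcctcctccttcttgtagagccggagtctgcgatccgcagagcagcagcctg
Hk1, first window: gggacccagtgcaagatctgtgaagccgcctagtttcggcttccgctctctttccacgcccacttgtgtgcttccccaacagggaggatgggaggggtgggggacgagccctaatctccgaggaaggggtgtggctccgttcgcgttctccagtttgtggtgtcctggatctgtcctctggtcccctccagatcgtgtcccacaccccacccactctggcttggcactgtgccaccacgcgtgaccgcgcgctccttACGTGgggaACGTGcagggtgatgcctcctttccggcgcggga
Hk1, second window: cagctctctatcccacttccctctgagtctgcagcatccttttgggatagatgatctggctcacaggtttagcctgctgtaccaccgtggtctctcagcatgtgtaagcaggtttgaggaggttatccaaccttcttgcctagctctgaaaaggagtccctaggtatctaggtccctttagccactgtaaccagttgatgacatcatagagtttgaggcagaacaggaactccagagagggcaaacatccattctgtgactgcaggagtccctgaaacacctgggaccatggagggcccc
Hk2: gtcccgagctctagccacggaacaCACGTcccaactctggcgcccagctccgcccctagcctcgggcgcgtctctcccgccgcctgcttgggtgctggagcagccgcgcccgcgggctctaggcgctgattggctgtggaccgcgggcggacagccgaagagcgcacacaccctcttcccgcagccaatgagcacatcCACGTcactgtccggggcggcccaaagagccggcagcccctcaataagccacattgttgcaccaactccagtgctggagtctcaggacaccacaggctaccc
The first Ldha window held 5 matches in 3 runs and the second 0. Ldhb held 0. The first Hk1 window held 2, the second 0, and Hk2 held 2. Of the 32 genes with a window, 23 (71.9%) had a match in at least 1 window, against 21.8% of all 27025 genes with a window. Set beside the stage difference described next, a match was present for 16 of the 22 genes called lower at E10.5 in mesenchymal cells and for 7 of the 10 others. Gpi1, Pfkl, Pfkp, Tpi1, Eno1 and Pdk1 were called lower and had none. Counted by window, 25 of 45 (55.6%) matched, against 19.6% of 32851. The full E-box was present in 3 of the 32, against 2187 of the 27025. Slc2a3 and Ndufa4l2 had no window. A match is a description of letters and not a shown binding site.

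The question of stage was asked first, since the mesenchyme forms and spreads through the arches over these days. In mesenchymal cells 24 of the 34 genes were lower at E10.5 than at E9.5 and 2 were higher, where 12.2% and 11.4% of all 16456 genes tested were called. Ldha, Pgk1, Pgam1, Aldoa, Hk2, Pfkp and Higd1a fell by the most, and Ldhb and Hk1 rose. The test was edgeR's quasi-likelihood test on the 2 libraries of E9.5 against the 4 of E10.5, with genotype as a term and Benjamini-Hochberg adjustment over all genes. Its fold changes are relative to TMM scaling factors, and these matter here. The median of all genes tested was 0.07 (log2) with TMM and 0.58 with library totals alone, a shift of 0.51. The median of the 34 genes was -0.87 with TMM and -0.36 with totals alone. Relative to totals, 14 of the 34 were lower and 5 higher, against 3.36% and 35.2% of all genes. The split of calls over all genes moved with it, from 48.4% higher among the called with TMM to 91.3% with totals.

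**Figure D1:**
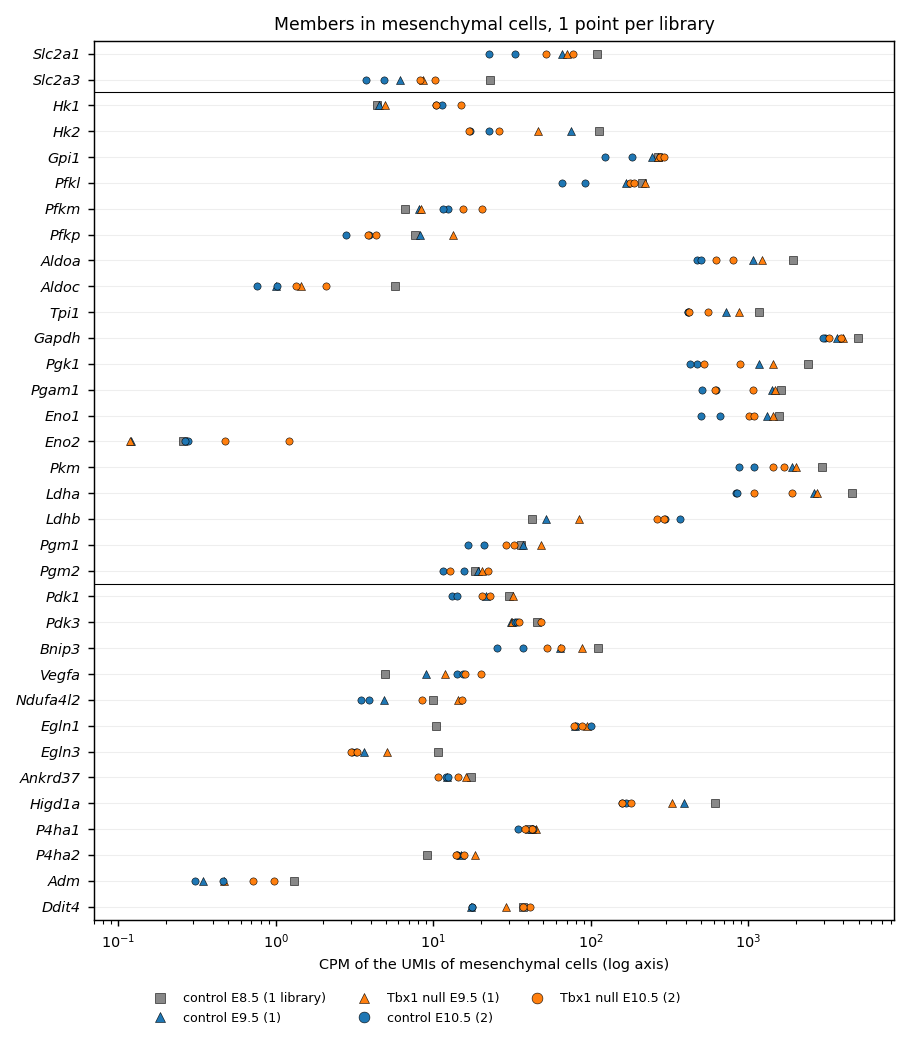
Level of each of the 34 genes in mesenchymal cells, as CPM on a log axis, with 1 point per library and horizontal lines between transporters, enzymes and hypoxia genes; marker shape gives the stage and colour the genotype. Ldha lies at 4522 CPM at E8.5 and at 832 and 842 CPM in the E10.5 controls, and Ldhb runs the other way, from 42.5 to 367 and 294 CPM.

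Glucose enters through transporters and is held in the cell by hexokinase. Slc2a1, the widely used glucose transporter GLUT1, stood at 109.6 CPM at E8.5, 65.8 (control) and 70.7 CPM (null) at E9.5, and at E10.5 32.8 and 22.5 CPM (controls) and 76.7 and 51.7 CPM (null). Its E10.5 null replicate 1 lay above both E9.5 libraries, so the stages overlapped in plain CPM, while the fitted difference was lower at E10.5 (log2 fold change -1.23 ± 0.29 (SE), adjusted p = 0.0266). Slc2a3, the transporter GLUT3, was at 22.9 CPM at E8.5, 6.11 (control) and 8.61 CPM (null) at E9.5, and at E10.5 4.85 and 3.74 CPM (controls) and 8.23 and 10.2 CPM (null) (log2 fold change -0.73 ± 0.21 (SE), adjusted p = 0.0463). Its E10.5 libraries also spanned both E9.5 values. Hk2 (ENSMUSG00000000628, chr6:82725025-82774454), the inducible hexokinase, stood at 113 CPM at E8.5, 74.7 (control) and 46.0 CPM (null) at E9.5, and at E10.5 17.2 and 22.4 CPM (controls) and 16.9 and 26.0 CPM (null). All 4 libraries of E10.5 lay below both of E9.5 (log2 fold change -2.04 ± 0.24 (SE), adjusted p = 0.00555). Hk1, the hexokinase of most adult tissues, was at 4.40 CPM at E8.5, 4.50 (control) and 4.96 CPM (null) at E9.5, and at E10.5 10.4 and 11.4 CPM (controls) and 10.3 and 14.9 CPM (null). Here all 4 lay above (log2 fold change 0.80 ± 0.20 (SE), adjusted p = 0.0322).

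The next steps turn glucose phosphate into triose phosphates. Gpi1, the isomerase, was at 266 CPM at E8.5, 245 (control) and 268 CPM (null) at E9.5, and at E10.5 181 and 122 CPM (controls) and 273 and 293 CPM (null) (log2 fold change -0.83 ± 0.22 (SE), adjusted p = 0.0361), with overlap between the stages in plain CPM. Phosphofructokinase commits sugar to glycolysis and has liver, muscle and platelet forms. Pfkl, the liver form, stood at 211 CPM at E8.5, 167 (control) and 220.3 CPM (null) at E9.5, and at E10.5 92.1 and 65.8 CPM (controls) and 178 and 187 CPM (null) (log2 fold change -1.21 ± 0.21 (SE), adjusted p = 0.0118). Both null libraries of E10.5 lay above the E9.5 control. Pfkp, the platelet form, was at 7.67 CPM at E8.5, 8.21 (control) and 13.4 CPM (null) at E9.5, and at E10.5 3.92 and 2.78 CPM (controls) and 4.33 and 3.87 CPM (null), every E10.5 library below both of E9.5 (log2 fold change -2.02 ± 0.22 (SE), adjusted p = 0.00513). Pfkm, the muscle form, was at 6.65 CPM at E8.5, 8.06 (control) and 8.31 CPM (null) at E9.5, and at E10.5 12.4 and 11.5 CPM (controls) and 15.4 and 20.2 CPM (null), every E10.5 library above both of E9.5, although the fitted change of 0.32 ± 0.19 (log2) was not called (adjusted p = 0.26). Aldolase splits the sugar, and Aldoa (ENSMUSG00000030695, chr7:126795234-126800751) stood at 1924 CPM at E8.5, 1066 (control) and 1212 CPM (null) at E9.5, and at E10.5 473 and 498 CPM (controls) and 797 and 624 CPM (null) (log2 fold change -1.46 ± 0.19 (SE), adjusted p = 0.00659). Aldoc, its brain-enriched relative, did not exceed 5.74 CPM in any library and was not called. Tpi1, which interconverts the triose phosphates, was at 1164 CPM at E8.5, 721 (control) and 871 CPM (null) at E9.5, and at E10.5 415 and 414 CPM (controls) and 553 and 419 CPM (null) (log2 fold change -1.33 ± 0.19 (SE), adjusted p = 0.0075). For Aldoa and Tpi1 the E10.5 libraries all lay below those of E9.5.

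The energy-yielding steps fell with them. Gapdh, often used as a reference gene, stood at 4958 CPM at E8.5, 3644 (control) and 3962 CPM (null) at E9.5, and at E10.5 3080.4 and 2964 CPM (controls) and 3865 and 3225 CPM (null), with overlap between the stages in plain CPM (log2 fold change -0.72 ± 0.19 (SE), adjusted p = 0.034). Pgk1 (ENSMUSG00000062070, chrX:106187100-106203699), the first of the steps that yield ATP, was at 2371 CPM at E8.5, 1159 (control) and 1431 CPM (null) at E9.5, and at E10.5 471 and 426 CPM (controls) and 879.9 and 525 CPM (null) (log2 fold change -1.70 ± 0.24 (SE), adjusted p = 0.0077). Pgam1, the mutase that follows, was at 1616 CPM at E8.5, 1414 (control) and 1479.5 CPM (null) at E9.5, and at E10.5 627 and 505 CPM (controls) and 1072 and 615 CPM (null) (log2 fold change -1.58 ± 0.27 (SE), adjusted p = 0.0109). For both genes all 4 E10.5 libraries lay below both E9.5 libraries, and null replicate 1 was the highest of the 4. Eno1, the general enolase, stood at 1557 CPM at E8.5, 1315 (control) and 1426 CPM (null) at E9.5, and at E10.5 662 and 502 CPM (controls) and 1006 and 1086 CPM (null) (log2 fold change -1.34 ± 0.21 (SE), adjusted p = 0.00928), with a near-identical copy, Eno1b, that holds 34170 UMIs of its own and could share reads with it. Eno2, the neuronal enolase, lay at or under 1.22 CPM throughout. Pkm, pyruvate kinase, was at 2937 CPM at E8.5, 1898 (control) and 2007 CPM (null) at E9.5, and at E10.5 1087 and 868 CPM (controls) and 1691 and 1440.1 CPM (null) (log2 fold change -1.18 ± 0.21 (SE), adjusted p = 0.0121). At the branch to lactate, Ldha (ENSMUSG00000063229, chr7:46841475-46855627), whose product favours lactate, stood at 4522 CPM at E8.5, 2619.6 (control) and 2727 CPM (null) at E9.5, and at E10.5 832 and 842 CPM (controls) and 1892 and 1077 CPM (null) (log2 fold change -1.78 ± 0.28 (SE), adjusted p = 0.00957). Ldhb (ENSMUSG00000030246, chr6:142490249-142507957), whose product favours pyruvate, was at 42.5 CPM at E8.5, 52.1 (control) and 83.7 CPM (null) at E9.5, and at E10.5 367 and 294 CPM (controls) and 264 and 289.8 CPM (null) (log2 fold change 1.65 ± 0.27 (SE), adjusted p = 0.00993). No library broke either order between the stages. Pgm1, which links glucose phosphate to glycogen, and its relative Pgm2 were both lower, by 1.33 ± 0.17 and 0.87 ± 0.26 on the log2 scale (adjusted p = 0.00659 and 0.0473). For Pgm2 the stages overlapped in plain CPM.

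Of the 13 hypoxia response genes, 8 were lower at E10.5 and 0 were higher with TMM. Higd1a, a mitochondrial protein induced by low oxygen, stood at 617 CPM at E8.5, 389 (control) and 327 CPM (null) at E9.5, and at E10.5 157 and 167 CPM (controls) and 180.3 and 156 CPM (null) (log2 fold change -1.62 ± 0.16 (SE), adjusted p = 0.00481). Bnip3, which marks mitochondria for removal, was at 110.2 CPM at E8.5, 63.5 (control) and 87.6 CPM (null) at E9.5, and at E10.5 25.2 and 37.1 CPM (controls) and 64.4 and 52.6 CPM (null) (log2 fold change -1.32 ± 0.21 (SE), adjusted p = 0.00993). Only null replicate 1 of the 4 E10.5 libraries reached the lower of the E9.5 values. Pdk1, a kinase that inhibits pyruvate dehydrogenase, was at 30.1 CPM at E8.5, 21.7 (control) and 32.1 CPM (null) at E9.5, and at E10.5 13.2 and 14.2 CPM (controls) and 20.5 and 22.9 CPM (null) (log2 fold change -1.12 ± 0.14 (SE), adjusted p = 0.00654). Null replicate 2 of E10.5 lay above the E9.5 control. Egln3, one of the oxygen-sensing prolyl hydroxylases, fell by 0.97 ± 0.23 on the log2 scale at levels of at most 10.7 CPM (adjusted p = 0.0255). The collagen prolyl hydroxylase subunits P4ha1 and P4ha2 fell by 0.65 ± 0.17 and 0.71 ± 0.16 in the fit, although their plain CPM ran from 34.4 to 44.7 and from 13.9 to 18.3 in the 6 libraries. Ndufa4l2 (a HIF-induced relative of a respiratory subunit, -0.86 ± 0.24) and Ankrd37 (-0.69 ± 0.21) were also called lower, both with overlap between the stages in plain CPM. Vegfa, the vascular growth factor and a classic HIF target, did not follow them. It stood at 4.97 CPM at E8.5, 9.01 (control) and 11.9 CPM (null) at E9.5, and at E10.5 14.1 and 15.5 CPM (controls) and 15.8 and 19.9 CPM (null), and its fitted change was 0.14 ± 0.17 (adjusted p = 0.577). Pdk3, Egln1, Adm and Ddit4 were not called either, with fitted changes of -0.25, -0.51, -0.01 and -0.29.

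With library totals in place of TMM, Hk2, Pfkl, Pfkp, Aldoa, Tpi1, Pgk1, Pgam1, Eno1, Pkm, Ldha, Pgm1, Pdk1, Bnip3 and Higd1a remained lower and Ldhb and Hk1 higher, 16 genes called under both scalings. Slc2a1, Slc2a3, Gpi1, Gapdh, Pgm2, Ndufa4l2, Egln3, Ankrd37, P4ha1 and P4ha2 were called lower with TMM only, and Pfkm, Vegfa and Eno2 were called higher with totals only. The sign of the fitted change differed between the scalings for 5 of the 34 genes, none of them called with TMM. Leaving out a library changed the counts, given here with the share of all genes called in the same fit in parentheses. Without the control library of E9.5, 0 of the 34 were called (0%), and without the null one 8 (2.99%). A single E9.5 library then stands for its stage, and its spread is taken from the E10.5 libraries. Without control replicate 1, control replicate 2, null replicate 1 or null replicate 2 of E10.5 the counts were 15 (7.8%), 18 (14%), 25 (29%) and 23 (20.6%). Control libraries alone, which share a kit version, gave 19 calls (17.4%) and null libraries alone 2 (2.95%).

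The stage difference recurred across cell classes. In Hox 3 mesenchyme 11 of 33 genes were lower at E10.5 and 3 higher (background 9.3% and 9.93%). In Hoxa2 mesenchyme, whose cells carry a gene that first-arch NCCs lack, 18 of 32 were lower and 1 higher (6.47% and 7.12%). Sox10 cells had 17 of 32 lower and 3 higher (9.86% and 11.2%), and neural progenitors 17 of 33 lower and 1 higher (3.66% and 5.25%). These comparisons draw on the same 6 libraries. Cells that met both the mesenchymal and the Sox10 rule were counted as mesenchymal. They numbered 728 (control) and 646 (null) at E9.5, and at E10.5 12 and 21 (controls) and 145 and 164 (null). Their part in the stage differences of either class was not tested. With library totals alone, the lower and higher counts were 6 and 7 in Hox 3 mesenchyme (background 3.31% and 29.2%). They were 14 and 3 in Hoxa2 mesenchyme (2.83% and 22.8%) and 12 and 3 in Sox10 cells (2.25% and 31.4%). In neural progenitors they were 12 and 2 (1.63% and 22.3%). The median of all genes shifted between the scalings by 0.32 to 0.51 (log2) over the 5 classes. Slc2a1, Hk2, Pfkl, Aldoa, Pgk1, Pgam1, Eno1, Ldha and Higd1a were called lower in all 5 classes with TMM, and Ldhb was called higher in all 5. With library totals Ldha, Pgk1, Pgam1 and Higd1a of these 9 kept the call in all 5 classes, as did Ldhb. Slc2a1 kept it in neural progenitors alone, Hk2 lost it in Sox10 cells and neural progenitors, and Aldoa lost it in Hox 3 mesenchyme. Eno1 lost it in Hox 3 mesenchyme and neural progenitors, and Pfkl in these and in Hoxa2 mesenchyme. Markers of cell state moved with stage in the same fits. Foxd3 and Erbb3, of the Sox10 lineage, were called lower at E10.5 in Hox 3 mesenchyme (-3.12 ± 0.48, adjusted p = 0.00866; -2.59 ± 0.33, adjusted p = 0.00575, log2 scale) and in Hoxa2 mesenchyme (-3.68 ± 0.77, adjusted p = 0.02; -2.92 ± 0.65, adjusted p = 0.0239). Col3a1, a collagen gene of mesenchyme, was called higher in Hox 3 mesenchyme (3.27 ± 0.24, adjusted p = 0.00133), in Hoxa2 mesenchyme (2.96 ± 0.27, adjusted p = 0.00134) and in Sox10 cells (2.82 ± 0.27, adjusted p = 0.000207). Their part in the stage differences was not tested. Without the control library of E9.5 the calls in the 4 classes, in the order above and with the share of all genes, were 0 (0%), 1 (0.402%), 7 (2.05%) and 3 (0.587%). Without the null library of E9.5 they were 1 (1.82%), 4 (2.56%), 16 (5.21%) and 8 (2.12%), and without control replicate 1 or 2 of E10.5 4 (7.35%), 10 (3.96%), 17 (12.4%) and 15 (5.79%) or 8 (15.2%), 10 (4.69%), 17 (12%) and 11 (5.58%).

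**Figure D2:**
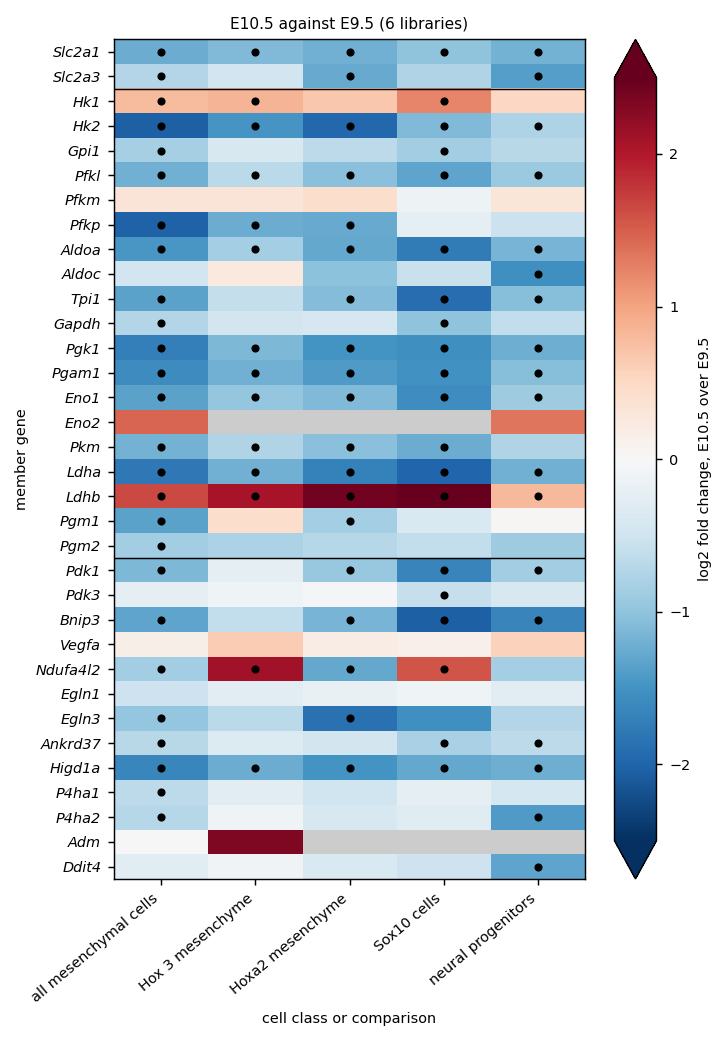
Fitted log2 fold change of E10.5 over E9.5 for each of the 34 genes (vertical axis) in 5 cell classes (horizontal axis), relative to TMM factors; blue is lower at E10.5, red higher, grey not tested, and a black dot marks an adjusted p under 0.05. Ldhb is the red band across all classes, and Ndufa4l2 changes colour from 2.10 in Hox 3 mesenchyme to -1.27 in Hoxa2 mesenchyme.

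Ldha in Sox10 cells fell from 2384 and 2212 CPM at E9.5 to 584 and 666 CPM in the controls and 1079 and 796 CPM in the null libraries at E10.5 (log2 fold change -1.97 ± 0.21 (SE), adjusted p = 0.000353). Tpi1 there went from 539 and 542 CPM to between 169 and 214 CPM (log2 fold change -1.91 ± 0.16 (SE), adjusted p = 0.000133). Bnip3 in Sox10 cells showed a log2 fold change of -2.05 ± 0.26 (adjusted p = 0.000877). In neural progenitors Ddit4, an inhibitor of mTOR signalling that stress induces, went from 30.0 and 33.9 CPM to between 13.3 and 18.5 CPM (log2 fold change -1.32 ± 0.15 (SE), adjusted p = 0.000951). Slc2a3 in neural progenitors fell from 32.2 and 35.7 CPM to between 13.8 and 19.5 CPM (log2 fold change -1.38 ± 0.16 (SE), adjusted p = 0.000951). Neurons were not tested between the stages. Their Ldha levels were 2235 and 2092 CPM at E9.5 and 864, 439, 1314 and 797 CPM at E10.5.

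Ndufa4l2, whose protein HIF induces to lower the activity of respiratory complex I, differed in the direction of its fitted change between classes. In Hox 3 mesenchyme it stood at 1.90 and 2.89 CPM at E9.5 and at E10.5 9.16 and 12.9 CPM (controls) and 11.5 and 20.3 CPM (null) (log2 fold change 2.10 ± 0.32 (SE), adjusted p = 0.00848). In Hoxa2 mesenchyme it stood at 2.97 and 6.64 CPM at E9.5 and at E10.5 0.936 and 1.96 CPM (controls) and 2.87 and 4.89 CPM (null) (log2 fold change -1.27 ± 0.35 (SE), adjusted p = 0.0433). All 4 later libraries were above both earlier ones in Hox 3 mesenchyme, and null replicate 2 lay between the E9.5 values in Hoxa2 mesenchyme. With library totals the Hoxa2 call was lost (log2 fold change -0.91, adjusted p = 0.0981, edgeR) and the Hox 3 and Sox10 calls were kept. A test of the difference itself, with each library as a block, was added after the values were seen. It put the stage effect in Hox 3 above that in Hoxa2 mesenchyme by 3.42 ± 0.37 on the log2 scale for Ndufa4l2 (adjusted p = 0.0136). Pgm1 (1.30 ± 0.21, adjusted p = 0.0416) and Tpi1 (0.52 ± 0.08, adjusted p = 0.046) also differed in this direction, where 0.333% of all genes were called. The other way 0 of the 34 differed, against 19 of all 14432 genes. Leaving out a library gave 0 to 5 calls, with 0 without either library of E9.5 (0.00661% and 0.0529% of all genes) and 1 without either control of E10.5 (0.14% and 0.608%). In Sox10 cells Ndufa4l2 rose as well, from 3.16 and 5.50 CPM at E9.5, with at E10.5 7.62 and 9.88 CPM (controls) and 19.1 and 38.3 CPM (null) (log2 fold change 1.58 ± 0.34 (SE), adjusted p = 0.0119). The summed neuronal markers Tubb3, Stmn2 and Dcx are given beside it. They summed to 114 and 79.2 CPM in Sox10 cells at E9.5 and 150.1, 113, 181 and 502 CPM at E10.5. In Hox 3 mesenchyme they were 26.3 and 37.4 CPM and then 169, 91.5, 187 and 914 CPM. Their part in the differences was not tested.

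Shares within an isozyme family do not depend on the scaling, and they moved from stage to stage. Of the UMIs of Ldha and Ldhb in mesenchymal cells, Ldhb held 0.930% at E8.5, 1.95% (control) and 2.98% (null) at E9.5, and at E10.5 30.6% and 25.9% (controls) and 12.3% and 21.2% (null). In Sox10 cells its share was 1.07% at E8.5, 2.74% (control) and 3.99% (null) at E9.5, and at E10.5 50.3% and 45.0% (controls) and 43.1% and 39.7% (null). Every E10.5 library lay above every earlier one in both classes, and the largest share, 50.3% in Sox10 cells of control replicate 1, had a 95% exact binomial interval of 49.0% to 51.7% from counting alone. Neural progenitors had lower Ldhb shares at E10.5, of 12.1% and 14.8% in the controls and 7.38% and 10.3% in the null libraries. In neurons they were 25.9% and 42.7% in the controls and 16.0% and 22.9% in the null libraries. In these 4 classes both null libraries of E10.5 lay below both controls, with 2 libraries of each genotype and no test. The order did not hold within the mesenchymal subclasses. The shares were 22.8% and 17.1% (controls) and 11.7% and 19.0% (null) in Hox 3 mesenchyme. In Hoxa2 mesenchyme they were 31.7% and 24.9% (controls) and 12.3% and 27.5% (null), and in both subclasses null replicate 2 exceeded control replicate 2. At E9.5 the order was the reverse in the 4 classes, with 1 library each. Hk1 made up 3.74% at E8.5, 5.68% (control) and 9.73% (null) at E9.5, and at E10.5 37.6% and 33.6% (controls) and 37.9% and 36.5% (null) of the Hk1 and Hk2 UMIs of mesenchymal cells. Pfkm made up 2.95% at E8.5, 4.39% (control) and 3.43% (null) at E9.5, and at E10.5 11.4% and 14.4% (controls) and 7.77% and 9.57% (null) of the 3 phosphofructokinase genes' UMIs. Neural progenitors kept lower Hk1 shares at E10.5, from 10.9% to 20.7%.

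**Figure D3:**
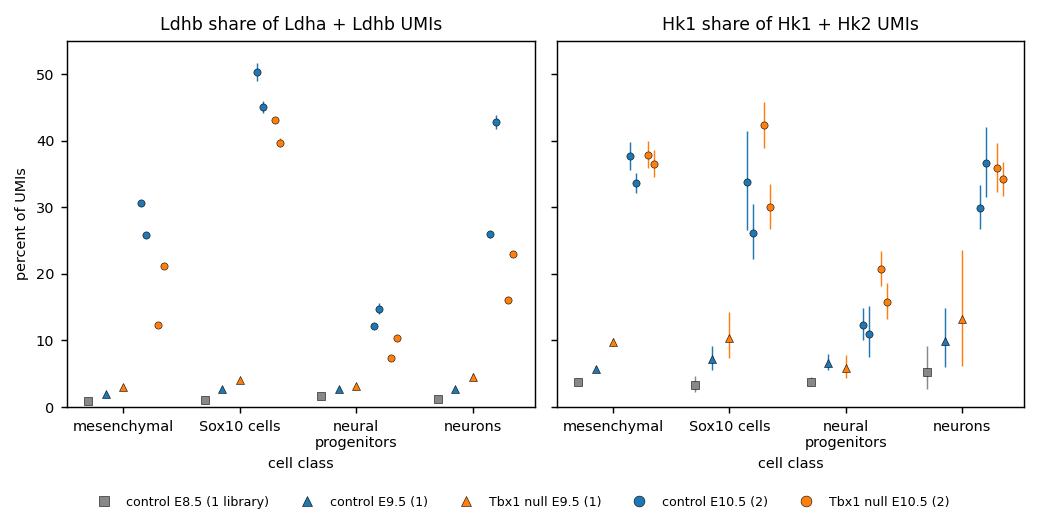
Share of Ldhb among Ldha and Ldhb UMIs (left) and of Hk1 among Hk1 and Hk2 UMIs (right), in percent, for 4 cell classes with 1 point per library; bars are 95% exact binomial intervals for counting error only. The E10.5 libraries (circles) lie above the E8.5 and E9.5 libraries of the same class in the left panel, up to 50.3% in Sox10 cells.

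Further genes of the same pathways were read from lists kept apart from the 34. Of 23 other genes of glycolysis and its side branches, 19 were tested in mesenchymal cells, of which 6 were lower at E10.5 and 2 higher, with a median of -0.46 (log2) against 0.07 for all genes. The lactate exporter Slc16a3 was among the lower (-2.14 ± 0.24, adjusted p = 0.00515, on the log2 scale). Of 29 other hypoxia genes tested, 11 were lower and 2 higher, where 2003 of all 16456 genes were lower and 1882 higher. The median of the 29 was -0.02, close to that of all genes, where that of the 34 was -0.87. The summed level of the 29 in mesenchymal cells was 4594 and 4681 CPM at E9.5 and 2727 to 3163 CPM at E10.5. The 3 with the smallest adjusted p were Stc2, which encodes a secreted glycoprotein (-3.21 ± 0.24, adjusted p = 0.00446), the carbonic anhydrase gene Car12 (-2.24 ± 0.23, adjusted p = 0.00481) and the mitochondrial adenylate kinase gene Ak4 (-1.62 ± 0.18, adjusted p = 0.00513). Of 16 genes of respiration 7 were lower and 0 higher, with a median of -0.56. Their summed level in mesenchymal cells was 6958 and 6992 CPM at E9.5 and 6432 to 6992 CPM at E10.5. Of 10 early-response and heat shock genes, which cell dissociation can induce, 5 were lower and 1 higher, with a median of -0.66. Their summed level was 269.9 and 289 CPM at E9.5 and 289 to 339 CPM at E10.5, and its part in the stage difference was not tested. In Sox10 cells the same sum was 179 and 257 CPM at E9.5 and 479.6, 347, 339 and 398 CPM at E10.5, with all 4 later libraries above both earlier ones. The early-response genes Jun (1.35 ± 0.28, adjusted p = 0.0103) and Egr1 (1.31 ± 0.35, adjusted p = 0.0237) were called higher there. The part of this in the Sox10 stage calls was not tested.

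E8.5 could be described only, since it is 1 library of a different dissection, kit and sequencing instrument. Of its 2772 mesenchymal cells 1670 also met the Sox10 rule, against 728 of 5335 in the E9.5 control. The part of this in the ratios was not tested. In mesenchymal cells 8 of the 34 genes were at least 2-fold higher at E8.5 than in the E9.5 control, where 5.49% of 13741 genes with 10 or more UMIs in both libraries were. At least 2-fold lower was 1 of the 34, against 12.8% of those genes. The median difference was 0.54 for the 34 genes and -0.15 for all genes (log2, plain CPM). Slc2a3 was higher by 3.75-fold (95% interval 3.44 to 4.08), Aldoc by 5.73-fold (95% interval 4.71 to 7.02), Egln3 by 2.95-fold (95% interval 2.63 to 3.32), Pgk1 by 2.05-fold (95% interval 2.03 to 2.06), Ldha by 1.73-fold (95% interval 1.72 to 1.73) and Slc2a1 by 1.67-fold (95% interval 1.62 to 1.72). These intervals cover counting error only. Egln1, the main prolyl hydroxylase acting on HIF, was the 1 that was lower. It stood at 10.5 CPM at E8.5 against 78.7 CPM at E9.5 in mesenchymal cells, at 13.2 against 75.3 CPM in Sox10 cells and at 11.1 against 85.4 CPM in neural progenitors, and it then lay between 77.9 and 99.8 CPM in mesenchymal cells at E10.5. Vegfa was also lower at E8.5 than in the E9.5 control, at 0.551-fold (95% interval 0.489 to 0.620) in mesenchymal cells, 0.460-fold in Hoxa2 mesenchyme, 0.520-fold in Sox10 cells and 0.411-fold in neural progenitors, with each counting interval below 1. Slc2a1 in neural progenitors read 406 CPM at E8.5, 186 CPM in the E9.5 control and 80.7 and 60.7 CPM in the E10.5 controls.

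Cell classes were then compared within the 4 libraries of E10.5, each library serving as its own block. Of the 34 genes, 8 were higher and 9 lower in mesenchymal cells than in neural progenitors (22% and 19.2% of all genes), so these counts differ little in share from the background. By group, 0 transporters, 4 enzymes and 4 hypoxia genes were higher in mesenchyme and 2, 5 and 2 lower. Slc2a1 stood at 80.7, 60.7, 159 and 107 CPM in progenitors against 32.8, 22.5, 76.7 and 51.7 CPM in mesenchyme of the same libraries (log2 fold change -1.18 ± 0.07 (SE), adjusted p = 8.57e-05). Slc2a3 (-1.33 ± 0.18), Hk2 (-0.73 ± 0.08) and Ldha (-0.40 ± 0.11) were lower in mesenchyme too. Hk1 (0.99 ± 0.12), Ldhb (0.78 ± 0.06), P4ha2 (2.00 ± 0.17), Ndufa4l2 (1.94 ± 0.22) and Ddit4 (0.76 ± 0.15) were higher there, on the log2 scale. Ndufa4l2 stood at 9.16, 12.9, 11.5 and 20.3 CPM in Hox 3 and 1.97, 2.24, 10.1 and 4.92 CPM in other mesenchyme. It was at 0.936, 1.96, 2.87 and 4.89 CPM in Hoxa2 mesenchyme and 1.52, 1.35, 1.71 and 2.93 CPM in neural progenitors. Barx1 mesenchyme had 0.476 and 0.815 CPM (controls) and 1.47 CPM (null replicate 1). Of the neuronal markers, Stmn2 (1.47 ± 0.14) and Dcx (1.49 ± 0.39) were called higher in mesenchyme in the same fit. Their part in the result was not tested. Without control replicate 1, 11 of the 34 were called (23.7% of all genes).

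Sox10 cells had lower levels than mesenchyme for 21 of the 34 genes and higher levels for 4 (21.4% and 18% of all genes). Tpi1 read 169, 176, 190.4 and 214 CPM in Sox10 cells against 415, 414, 553 and 419 CPM in mesenchyme (log2 fold change -1.24 ± 0.10 (SE), adjusted p = 0.000158). The lower genes took in both transporters, 10 of 19 enzymes and 9 of 13 hypoxia genes. Pdk1 (-1.26 ± 0.12), Bnip3 (-1.20 ± 0.08), Egln3 (-1.59 ± 0.29) and Pgm1 (-1.06 ± 0.09) were among them, as was Adm, a vasoactive peptide gene at or below 0.972 CPM in both classes at E10.5 with 0 UMIs in 3 of the 4 Sox10 sums. The higher genes were Ldhb (1.04 ± 0.15), Ndufa4l2 (1.29 ± 0.09), Pfkp (0.61 ± 0.17) and Hk2 (0.34 ± 0.10). Of the early-response genes, Egr1 (3.46 ± 0.36) and Jun (0.91 ± 0.11) were called higher in Sox10 cells in the same fit. Ier2 (-0.44 ± 0.10) and Atf3 (-1.93 ± 0.54) were called lower. Their part in the result was not tested.

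Neurons differed from neural progenitors in 31 of the 34 genes, 20 lower and 11 higher, where 32.3% and 31.6% of all genes were called. Ndufa4l2 stood out, at 28.1, 58.9, 28.1 and 37.9 CPM in neurons against 1.52, 1.35, 1.71 and 2.93 CPM in progenitors (log2 fold change 4.14 ± 0.17 (SE), adjusted p = 5.97e-06). Of the 19 enzymes 12 were lower in neurons, with Pgm1 (-0.99 ± 0.08), Ldha (-0.87 ± 0.09), Hk2 (-0.82 ± 0.07) and Eno1 (-0.65 ± 0.06) among them. The 5 higher ones were Hk1 (0.68 ± 0.13), Ldhb (0.64 ± 0.05), Pfkp (0.73 ± 0.12), Pgm2 (0.72 ± 0.09) and Eno2 (0.91 ± 0.22), the neuronal enolase. The 13 hypoxia genes split into 6 higher and 6 lower.

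Within mesenchyme, 18 of the 34 genes were higher in Hox 3 than in Hoxa2 mesenchyme and 0 were lower, where 9.15% of all genes were called higher. The set took in both transporters, 10 of 19 enzymes and 6 of 13 hypoxia genes. Most differences were small. Ldha read 1055, 1148, 2028 and 1172 CPM in Hox 3 mesenchyme against 773, 821, 1818 and 849 CPM in Hoxa2 mesenchyme of the same libraries (log2 fold change 0.34 ± 0.06 (SE), adjusted p = 0.00896). Larger ones were those of Ndufa4l2 (2.43 ± 0.20), Aldoc (1.17 ± 0.25), Slc2a3 (1.13 ± 0.14), Vegfa (0.69 ± 0.10), Pgm1 (0.67 ± 0.08), Ddit4 (0.65 ± 0.11) and Bnip3 (0.62 ± 0.08). Over the 6 libraries of E9.5 and E10.5 the count was 6 higher and 2 lower (17.1% of all genes called in either direction). Summed neural progenitor markers (Nes, Pax3 and Hes5) were also higher in the Hox 3 class, at 104 to 457 CPM against 57.0 to 185 CPM at E10.5, as were those of neurons, at 91.5 to 914 against 19.1 to 218 CPM, and their part in the difference was not tested. Among all genes 57.7% of the calls were higher with TMM and 72.2% with library totals, by which 20 of the 34 were higher and 0 lower. Without control replicate 1, 9 of the 34 were called (4.89% of all genes). Barx1 mesenchyme, present in 3 libraries of E10.5, exceeded Hoxa2 mesenchyme in 1 of 32 genes (2.68% of all genes), Gapdh, by 0.11 ± 0.02. With library totals 0 were called, and the share of higher calls over all genes went from 46.5% to 16.1%.

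**Figure D4:**
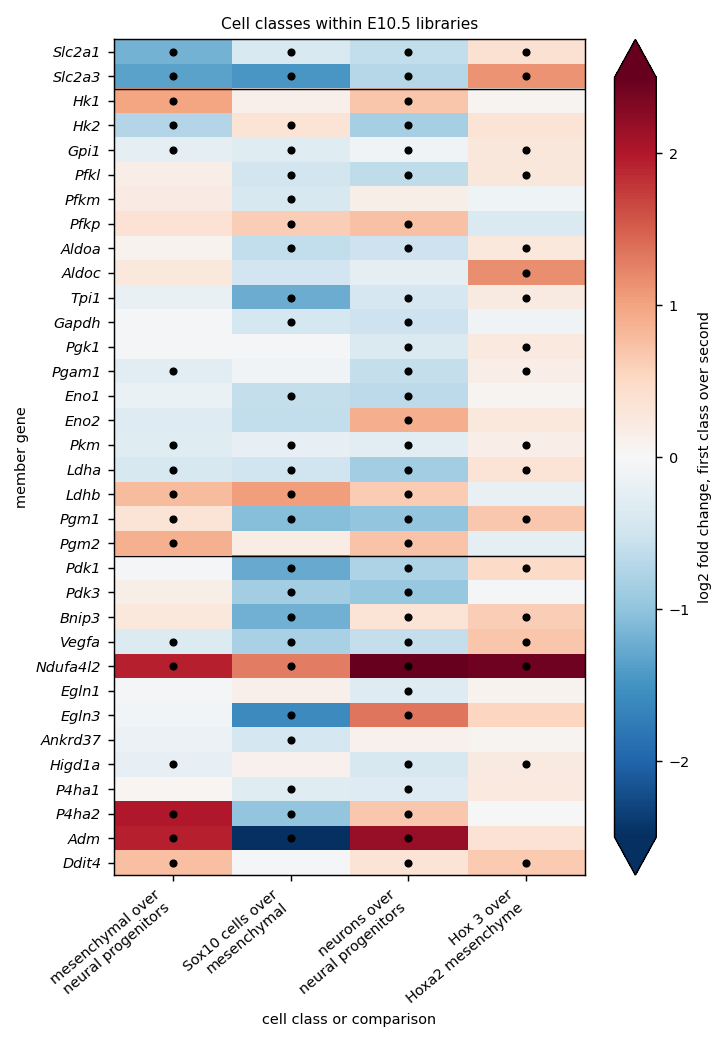
Fitted log2 fold change of each of the 34 genes (vertical axis) between pairs of cell classes in the 4 libraries of E10.5 (horizontal axis, first class over second); red is higher in the first class, blue lower, and a black dot marks an adjusted p under 0.05. Ndufa4l2 is at 4.14 in neurons over neural progenitors, past the end of the colour scale, and all dots of the Hox 3 column are red.

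Genotype was compared last. At E10.5 the median of the 34 genes lay above that of all genes in each class, but with 2 libraries against 2 the single differences were not called in most classes. The 4 libraries are those of the stage and class comparisons. In all mesenchymal cells 0 of the 34 genes passed (0.1% of all genes). An unadjusted p under 0.05 was reached by 9 of them there (15% of all genes), and DESeq2 called 5 (4.41%). Hox 3 mesenchyme gave 0 of 34 (0% of all genes). There 6 reached an unadjusted p under 0.05 (10.6% of all genes) and DESeq2 called 0 (1.01%). In Hoxa2 mesenchyme 0 of 32 passed (0.191% of all genes). There 8 reached an unadjusted p under 0.05 (12.1% of all genes) and DESeq2 called 2 (2.02%). Sox10 cells gave 0 of 32 (0.0395% of all genes). There 10 reached an unadjusted p under 0.05 (9.82% of all genes) and DESeq2 called 2 (0.568%). In neural progenitors 0 of 33 passed (0.0227% of all genes). There 5 reached an unadjusted p under 0.05 (7.53% of all genes) and DESeq2 called 0 (0.196%). In neurons 0 of 34 passed (0% of all genes). There 2 reached an unadjusted p under 0.05 (4.98% of all genes) and DESeq2 called 0 (0.162%). On simulated counts with 2-fold changes this design recovered 8% of changed genes in all mesenchymal cells, so a count of 0 does not show that levels were alike. The median of the 34 genes was 0.40 (log2) in all mesenchymal cells against -0.02 for all genes, and it ran from 0.23 in neurons to 0.73 in Barx1 mesenchyme. Without null replicate 1 the median of the 34 genes was smaller, at 0.16 in all mesenchymal cells (all genes -0.02), 0.01 in Hox 3 mesenchyme (all genes 0.02), 0.14 in Hoxa2 mesenchyme, 0.16 in other mesenchyme, 0.28 in Sox10 cells, 0.14 in neural progenitors and 0.05 in neurons.

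The levels show where the groups parted. Ldha in mesenchyme read 832 and 842 CPM in the controls and 1892 and 1077 CPM in the null libraries (log2 fold change 0.67 ± 0.36 (SE), adjusted p = 0.421). Slc2a1 read 32.8 and 22.5 against 76.7 and 51.7 CPM (log2 fold change 1.05 ± 0.31 (SE), adjusted p = 0.25). Eno1 read 662 and 502 against 1006 and 1086 CPM (log2 fold change 0.66 ± 0.25 (SE), adjusted p = 0.296). Both null libraries exceeded both controls for each of these genes. After TMM scaling this was so for 17 of the 34 genes in mesenchymal cells, where 23.8% of all genes did so, and 3 lay below both. Ldhb was one of the latter, at 367 and 294 against 264 and 289.8 CPM (log2 fold change -0.44 ± 0.22 (SE), adjusted p = 0.398). The counts above both controls were 11 of 34 in Hox 3 mesenchyme (background 21.2%), 12 of 32 in Hoxa2 mesenchyme (21.5%) and 15 of 34 in other mesenchyme (28.1%). They were 17 of 32 in Sox10 cells (22.1%), 15 of 33 in neural progenitors (21%) and 10 of 34 in neurons (19%). Eno1, Gpi1, Ddit4, Pfkl and Pfkm were above both controls in each of these 7 classes. With library totals alone 22 of the 34 lay above in mesenchymal cells, where 36.6% of all genes did, and the medians of all genes shifted up by 0.03 to 0.19 (log2) over the 8 classes.

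Other things moved with genotype. Hox 3 cells, in which 18 of the 34 genes were called higher than in Hoxa2 mesenchyme, were 867 of 3310 and 1089 of 6614 mesenchymal cells in the controls and 1646 of 3192 and 1456 of 2233 in the null libraries, so the mix of the class differed. Within Hox 3 mesenchyme the median of the 34 genes was 0.32 and within Hoxa2 mesenchyme 0.41, falling to 0.01 and 0.14 without null replicate 1 and reading 0.47 and 0.63 without null replicate 2. Summed markers of neural progenitors in mesenchymal cells were 140.3 and 63.9 CPM in the controls and 186 and 379.5 CPM in the null libraries, and those of neurons are given above. Of the Sox10-lineage markers, Foxd3 was called higher in null mesenchyme (3.75 ± 0.38, adjusted p = 0.0416, on the log2 scale). The mesenchymal markers went the other way, from 301 and 309 CPM to 207 and 236 CPM. Their part in the result was not tested. Null replicate 1 carried the highest Ldha, Pgk1 and Pgam1 of the 4 libraries in each of the 7 classes of that comparison. It differs from the controls in kit version, and the study lists its embryos at an earlier somite range. The part of either was not tested. Null replicate 2 shares the kit of the controls. With 1 of the null libraries left out, 1 null library stands against 2 controls and its spread is taken from the controls. Without null replicate 1, 1 of the 34 was then called in all mesenchymal cells (1.5% of all genes), and without null replicate 2, 0 (0.00614%). These counts were 4 (10.8%) and 11 (6.2%) in Hoxa2 mesenchyme, 3 (4.96%) and 9 (8.61%) in other mesenchyme and 4 (4.29%) and 8 (5.41%) in Sox10 cells, with the share of all genes called in parentheses.

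Calls were made in Barx1 mesenchyme and in other mesenchyme. In Barx1 mesenchyme 12 of 31 genes were higher in the null sample and 0 lower, where 2.86% of all genes were called higher. Only null replicate 1 had 50 or more such cells, so 1 null library was set against 2 controls. That library differs from the controls in kit version and in somite range, which the study lists as earlier. It carried the highest Ldha, Pgk1 and Pgam1 elsewhere. Its spread is taken from the controls, and these calls say nothing of the spread among null pools. Ldha read 727 and 825 CPM in the controls and 2028 CPM in the null library (log2 fold change 1.31 ± 0.19), and Slc2a1 22.9 and 19.2 against 61.9 CPM (1.49 ± 0.23). Pfkl (1.31 ± 0.22), Pgm1 (1.23 ± 0.28), Ddit4 (1.15 ± 0.29), Pgk1 (1.11 ± 0.20), Pgam1 (0.99 ± 0.20), Bnip3 (0.97 ± 0.26), Aldoa (0.86 ± 0.20), Eno1 (0.86 ± 0.20), Pkm (0.82 ± 0.19) and Gpi1 (0.73 ± 0.22) were the others. In the same fit the early-response gene Junb was called higher (2.15 ± 0.39), and the mesenchymal marker Pdgfra (-0.80 ± 0.24) and the epithelial marker Krt18 (-2.50 ± 0.57) lower. Their part in the result was not tested. The same 12 were called with library totals, while the share of higher calls over all genes went from 47.7% to 61.7%. With each cell thinned to 5000 UMIs, 1 was called (0.104% of all genes). In other mesenchyme 2 of 34 were higher (2.59% of all genes), and 3 with library totals (2.9% called in either direction), where the share of higher calls went from 74.7% to 85.5%. Pfkl read 85.2 and 61.4 CPM in the controls and 147 and 181 CPM in the null libraries (log2 fold change 1.05 ± 0.23 (SE), adjusted p = 0.0365). Ndufa4l2 read 1.97 and 2.24 against 10.1 and 4.92 CPM (log2 fold change 1.73 ± 0.39 (SE), adjusted p = 0.0396). Both calls were lost when doublets were kept, with limits of 200 genes and 5% mitochondrial UMIs, and with 5 UMIs of the mesenchymal genes required.

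**Figure D5:**
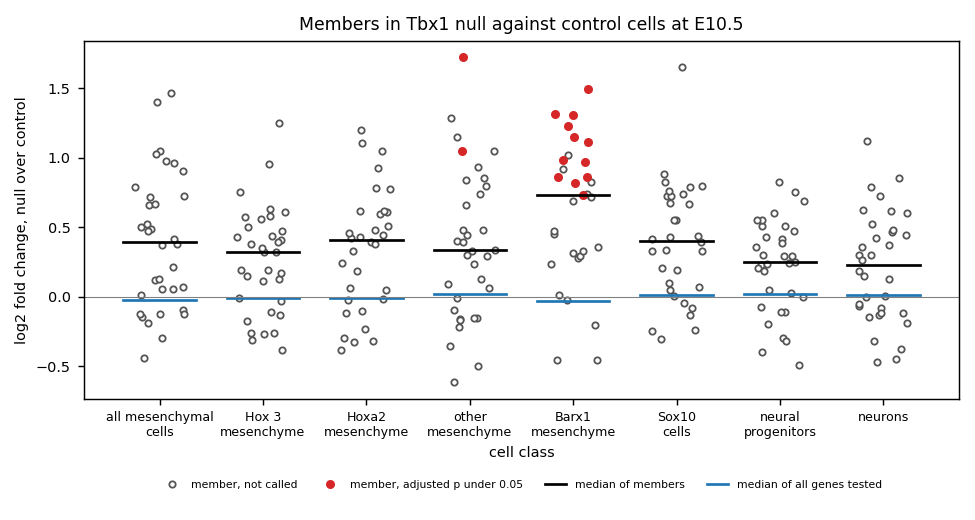
Fitted log2 fold change of Tbx1 null over control at E10.5 for each tested gene of the 34 (points, red where the adjusted p is under 0.05) in 8 cell classes; black bars are medians of these genes and blue bars medians of all genes tested. The black bar lies above the blue one in every class, at 0.40 against -0.02 in all mesenchymal cells, and Barx1 mesenchyme rests on 1 null library. Without null replicate 1 the black bar of all mesenchymal cells would lie at 0.16.

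At E9.5, with 1 library of each genotype and no test, 1 of the 34 genes differed 2-fold or more in mesenchymal cells, where 2.64% of all genes did. It was Ndufa4l2, at 4.89 CPM in the control and 14.3 CPM in the null library, 2.93-fold (95% interval 2.68 to 3.20) by counting error alone. The counting interval of the ratio lay above 1 for 27 of the 34 genes and below 1 for 2, where it did so for 36.3% and 20.2% of all genes, and the median was 0.27 (log2) against 0.07 for all genes. The 2 below were Hk2 at 0.616-fold (95% interval 0.598 to 0.635) and Higd1a at 0.841-fold (95% interval 0.831 to 0.851). Hk2 was at 0.460-fold in Hox 3 mesenchyme, 0.616-fold in Hoxa2 mesenchyme, 0.497-fold in Sox10 cells and 0.578-fold in neural progenitors. For both genes the counting interval lay below 1 in each of these classes too. Such an interval narrows as UMIs rise, and that of Gapdh left out 1 at 1.087-fold (95% interval 1.083 to 1.091). The shares over all genes take in genes with as few as 10 UMIs and are not matched for level. Medians within the classes were -0.004 in Hox 3 mesenchyme, 0.17 in Hoxa2 mesenchyme, 0.01 in Sox10 cells and 0.06 in neural progenitors. Whether genotype acted differently by class or stage was tested directly. The effect in mesenchyme minus that in neural progenitors at E10.5 was called for 0 of the 34 genes (0.0511% of all genes, 4 of the 34 and 11.4% of all genes at an unadjusted p under 0.05, 0 and 1.42% by DESeq2). The effect at E10.5 minus that at E9.5 in mesenchyme was called for 0 (0.00579% of all genes, 1 and 4.15% at an unadjusted p under 0.05, 0 and 0.26% by DESeq2). The latter test recovered 0% of 2-fold changes on simulated counts, so its count of 0 says nothing about these genes.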

How the data were processed

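Sorted EGFP-positive cells of 7 libraries were analysed from the filtered matrices of UMI counts that the authors deposited, with Cell Ranger 6.0.1 and mm10 named in the submitters' processing notes. Cells with under 1000 genes or over 10% mitochondrial UMIs were removed, as were the top Scrublet scores at 0.8% per 1000 barcodes. UMIs were summed per library and class (50 or more cells). Sums were tested with edgeR 4.0.16 (quasi-likelihood, TMM, low-count filter, R 4.3.3), with Benjamini-Hochberg adjustment over all genes and a threshold of 0.05. Class comparisons had library as a block. DESeq2 1.42.0, other scalings, filters, thinning to 5000 UMIs and left-out libraries were alternatives. Scripts used scanpy 1.11.5, numpy 2.4.6, scipy 1.17.1 and matplotlib 3.10.9. The fits were tested on simulated data. Members, lists and the stage comparisons were chosen with earlier results of these data known. All 34 genes are named, and of other lists at most 4 genes a comparison, those with the smallest adjusted p. Ratios of single libraries and isozyme shares carry 95% intervals. UMIs count molecules, and these intervals and depths cover counting error only. Nothing states that libraries came from separate litters, so p-values measure the spread between pools. Promoter windows were from RefSeq.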

Additional observations from a re-analysis of the deposited data

Results flagged for a closer look

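The effect of stage differed between Hox 3 and Hoxa2 mesenchyme for 3 of the 34 genes by a test of the difference itself, which was added after the values had been seen (edgeR, libraries as blocks). The signed stage effect (E10.5 over E9.5, log2) in Hox 3 mesenchyme lay above that in Hoxa2 mesenchyme by 0.52 for Tpi1, by 1.3 for Pgm1 and by 3.42 for Ndufa4l2. Adjusted p was 0.046, 0.0416 and 0.0136. For Tpi1 this was a smaller change in Hox 3 mesenchyme, from 577 and 568 CPM to between 449 and 589 CPM. In Hoxa2 mesenchyme it went from 644 and 743 CPM to between 353 and 520 CPM. Each class had 2 libraries at E9.5 and 4 at E10.5, and the classes come from the same libraries. Summed neuronal markers were also higher in Hox 3 cells of E10.5, and their part in the difference was not tested.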

How the results depend on the processing

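Counts here are members called, each followed by the share of all genes called in the same fit. Genotype calls at E10.5 in all mesenchymal cells were 5 (4.41%) by DESeq2 and 4 (6.18%) with no filter on low counts, in Hoxa2 mesenchyme 2 (2.02%) and 3 (3.57%), in other mesenchyme 5 (4.58%) and 5 (6.89%), in Sox10 cells 2 (0.568%) and 1 (1.68%), and in neurons 1 (0.581%) with no filter. Other mesenchyme gave 0 (0.504%) with 5 UMIs required, 0 (2.06%) with limits of 200 genes and 5% mitochondrial UMIs, and 0 (2.02%) with doublets kept. Barx1 mesenchyme gave 1 (0.104%) after thinning. With the replicate block the counts were 0 (0.76%) in all mesenchymal cells, 0 (0.419%) in Hox 3, 3 (2.24%) in Hoxa2 and 7 (13.4%) in other mesenchyme, 1 (1.35%) in Sox10 cells, 4 (4.37%) in neural progenitors and 0 (0.134%) in neurons, so the block raised the calls over all genes as well. The 2 pairs share only a number, and same-numbered libraries deviated together with r of 0.01 to 0.42 over genes. Stage calls in null libraries alone were 2 (2.95%) in all mesenchymal cells, 0 (0.741%) in Hox 3, 2 (1.83%) in Hoxa2, 7 (2.98%) in Sox10 cells and 4 (2.9%) in neural progenitors. With 6 libraries the class calls were 10 (44.1%) for mesenchyme and neural progenitors, 8 (17.1%) for Hox 3 and Hoxa2 and 6 (9.7%) for Barx1 and Hoxa2, the last being 3 (5.01%) with no filter and 0 (4.26%) with library totals. The genotype effect in mesenchyme minus neural progenitors gave 1 (4.02%) with no filter. The stage effect in Hox 3 minus Hoxa2 gave 7 (1.54%) by DESeq2, 1 (0.443%) with DESeq2 size factors and 8 (1.3%) with no filter.

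Leaving out 1 library, genotype calls ranged over 0 to 1 in all mesenchymal cells, 0 to 0 in Hox 3, 0 to 11 in Hoxa2 and 1 to 9 in other mesenchyme, 0 to 8 in Sox10 cells, 0 to 1 in neural progenitors and 0 to 0 in neurons. Stage calls ranged over 0 to 25, 0 to 18, 1 to 22, 7 to 22 and 3 to 22 in the order all mesenchymal cells, Hox 3, Hoxa2, Sox10 cells and neural progenitors. Class calls ranged over 11 to 18, 17 to 22, 30 to 31, 9 to 18 and 0 to 3 in the order of the report, and differences of effects over 0 to 1, 0 to 0 and 0 to 5. The causes were not tested. Library totals, the left-out libraries for differences of effects and the test of Hox 3 against Hoxa2 stage effects were chosen after seeing the data. On simulated counts 2-fold changes were recovered at 8% to 35% for genotype, 29.5% to 57.5% for stage and 74% to 86% for classes.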
